A study of Mus musculus with 6 samples.

Results

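Axon guidance proteins are secreted or membrane-bound ligands and their cell-surface receptors, first known for steering growing nerve fibres and also used by blood vessels, epithelia and migrating cells. The genes described here are the semaphorins with their plexin and neuropilin receptors, the ephrins with their Eph receptors, the Slits with their Robo receptors, and the netrins with their Dcc and Unc5 receptors. They were taken by symbol from the probe sets with exactly 1 gene symbol, with 1 probe set per gene, the one with the highest mean log2 intensity over the 6 arrays. This gave 70 genes from 155 probe sets, out of 18194 genes with a single symbol. The symbol pattern also took in 3 genes that are not classical guidance ligands or receptors, Unc50, a membrane trafficking protein, Unc5cl, an Unc5-like signalling protein, and Plxna4os1, an antisense transcript beside Plxna4.

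The arrays measured whole testes of mouse embryos at E13.5, outcrossed to the 129S6/SvEvTac strain, in 3 control and 3 Dmrt1 null samples. The control titles read wild type, whereas the descriptions, the genotype entries and the design text give Dmrt1 (+/-). The null titles, descriptions and design text give Dmrt1 (-/-), whereas the genotype entry names flox/flox alleles, and no Cre line is named in the labels. The comparison asks what loss of Dmrt1, a DM domain transcription factor of Sertoli and germ cells, does to fetal testis transcripts in mice prone to teratoma. The samples are labelled as biological replicates. Because RNA came from whole gonads, fewer cells of a type and less RNA per cell cannot be told apart. A running number in the descriptions places all null samples before all controls, and its meaning, not given in the sources used here, cannot be told apart from genotype.

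Values are intensities on a linear scale, given for replicates 1, 2 and 3 of a group in that order. A difference is the mean log2 intensity of the nulls less that of the controls. Dmrt1 itself was 26.4-fold lower in the null testes. Testis markers were present, with 9 of 10 listed Sertoli genes (all but Erbb4) and all 9 measured germ cell genes above the expression filter. The 3' to 5' signal ratio of Actb ranged from 1.91 to 2.15 over 5 arrays and reached 2.75 in null replicate 3. With 3 arrays per group, the number of arrays limits the precision of every value.

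Of the 70 genes, 55 had a mean log2 intensity of at least 4 and were tested. The other 15 lay below this filter, with intensities of 2.90 to 22.3 on single arrays. They were Plxna4, Plxnb3, Plxna4os1, Epha5, Epha6, Epha8, Epha10, Slit1, Robo2, Robo3, Ntn3, Ntn5, Unc5a, Unc5d and Unc5cl. Thus all 20 semaphorins and all 8 ephrins were tested, but 9 of 13 Eph receptors, 9 of 12 plexin and neuropilin entries, 2 of 3 Slits, 1 of 3 Robos and 2 of 4 netrins. The nearest gene above the filter had a mean log2 intensity of 4.15, and the nearest below it, Plxna4, had 3.94. Levels are compared within a probe set only, since probes differ in how well they bind.

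Promoter sequence is shown for 4 members, because the DM domain recognises a roughly palindromic site whose core can be written ACANTGT (N is any base, and the motif reads the same on both strands). The windows are the 250 bases before a RefSeq gene start in build GRCm38.p6, 5′ to 3′ on the strand of the gene, with the motif in capitals. RefSeq promoters were given for 27025 genes, of which 2007 (7.43%) held the motif in such a window. They covered 59 of the 70 members, of which 3 (5.08%) held it. The 3 members were Sema4d, Plxna2 and Plxnb3, and the window of Plxnc1 is given beside them as the member with the next smallest p after Sema4d.
Sema4d (chr13:51748811-51749060, minus strand): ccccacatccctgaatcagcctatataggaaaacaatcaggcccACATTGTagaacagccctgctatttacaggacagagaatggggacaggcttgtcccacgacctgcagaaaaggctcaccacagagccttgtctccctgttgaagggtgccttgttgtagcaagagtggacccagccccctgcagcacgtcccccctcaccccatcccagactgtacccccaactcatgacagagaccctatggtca
Plxna2 (chr1:194619579-194619828, plus strand): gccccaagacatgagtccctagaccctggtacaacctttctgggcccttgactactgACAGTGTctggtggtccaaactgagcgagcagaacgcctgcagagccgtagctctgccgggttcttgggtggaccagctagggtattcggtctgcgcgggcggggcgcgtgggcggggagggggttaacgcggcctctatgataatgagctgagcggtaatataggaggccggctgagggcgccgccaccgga
Plxnb3 (chrX:73756853-73757102, plus strand): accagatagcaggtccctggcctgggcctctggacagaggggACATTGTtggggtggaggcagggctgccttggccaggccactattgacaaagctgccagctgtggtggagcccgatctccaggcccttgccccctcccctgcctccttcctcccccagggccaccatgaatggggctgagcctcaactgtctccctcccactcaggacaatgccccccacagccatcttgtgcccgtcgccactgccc
Plxnc1 (chr10:94944846-94945095, minus strand): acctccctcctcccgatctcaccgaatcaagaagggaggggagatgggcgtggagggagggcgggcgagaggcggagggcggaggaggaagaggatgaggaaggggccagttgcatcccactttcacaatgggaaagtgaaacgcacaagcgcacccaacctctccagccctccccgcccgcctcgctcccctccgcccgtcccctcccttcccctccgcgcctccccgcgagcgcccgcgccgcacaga
The motif began 206 bases before the start in Sema4d, 193 in Plxna2 and 208 in Plxnb3. Sema4d has 3 RefSeq starts, and the windows of the other two held no match. A match is a description of these letters, not of binding.

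No guidance gene was called different between null and control testes. By limma with Benjamini-Hochberg adjustment, 0 of 55 members passed an adjusted p of 0.05, where 0.0272% of all 22082 probe sets tested did, and the smallest adjusted p of a member was 0.773. At an unadjusted p under 0.05, 2 members were lower in the null, Sema4d and Plxnc1, and 0 were higher. That is 3.64% of the members lower, against 3.28% of all probe sets tested, and 2.75% of all probe sets were higher. Counted with 1 probe set per gene, as for the members, 3.01% of 11874 were lower and 3.44% higher. The groups did not overlap at 1 tested member, Sema4d, against 6.06% of all probe sets separate and lower in the null and 6.73% separate and higher. Among the 15 members below the filter, Plxnb3, Robo3 and Slit1 were separate and higher, and Unc5d, Epha5 and Epha8 separate and lower. Their values were close to background, and no share over all probe sets below the filter is given beside them. The differences of the 55 tested members lay between -0.47 and 0.37, with 32 higher, 23 lower and a median of 0.02, and the median over all probe sets was 0.01. The number lower at an unadjusted p under 0.05 became 1 when control replicate 1 (Ntn1), control replicate 3 (Sema4d) or null replicate 1 (Efnb2) was left out. It reached 4 without control replicate 2, when the members were Sema4d, Plxnc1, Nrp1 and Plxna2. Of all probe sets, 2.77% were lower at that level in that fit. The shares without control replicate 1, control replicate 3 and null replicate 1 were 2.82%, 2.21% and 3.72%.

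**Figure D1:**
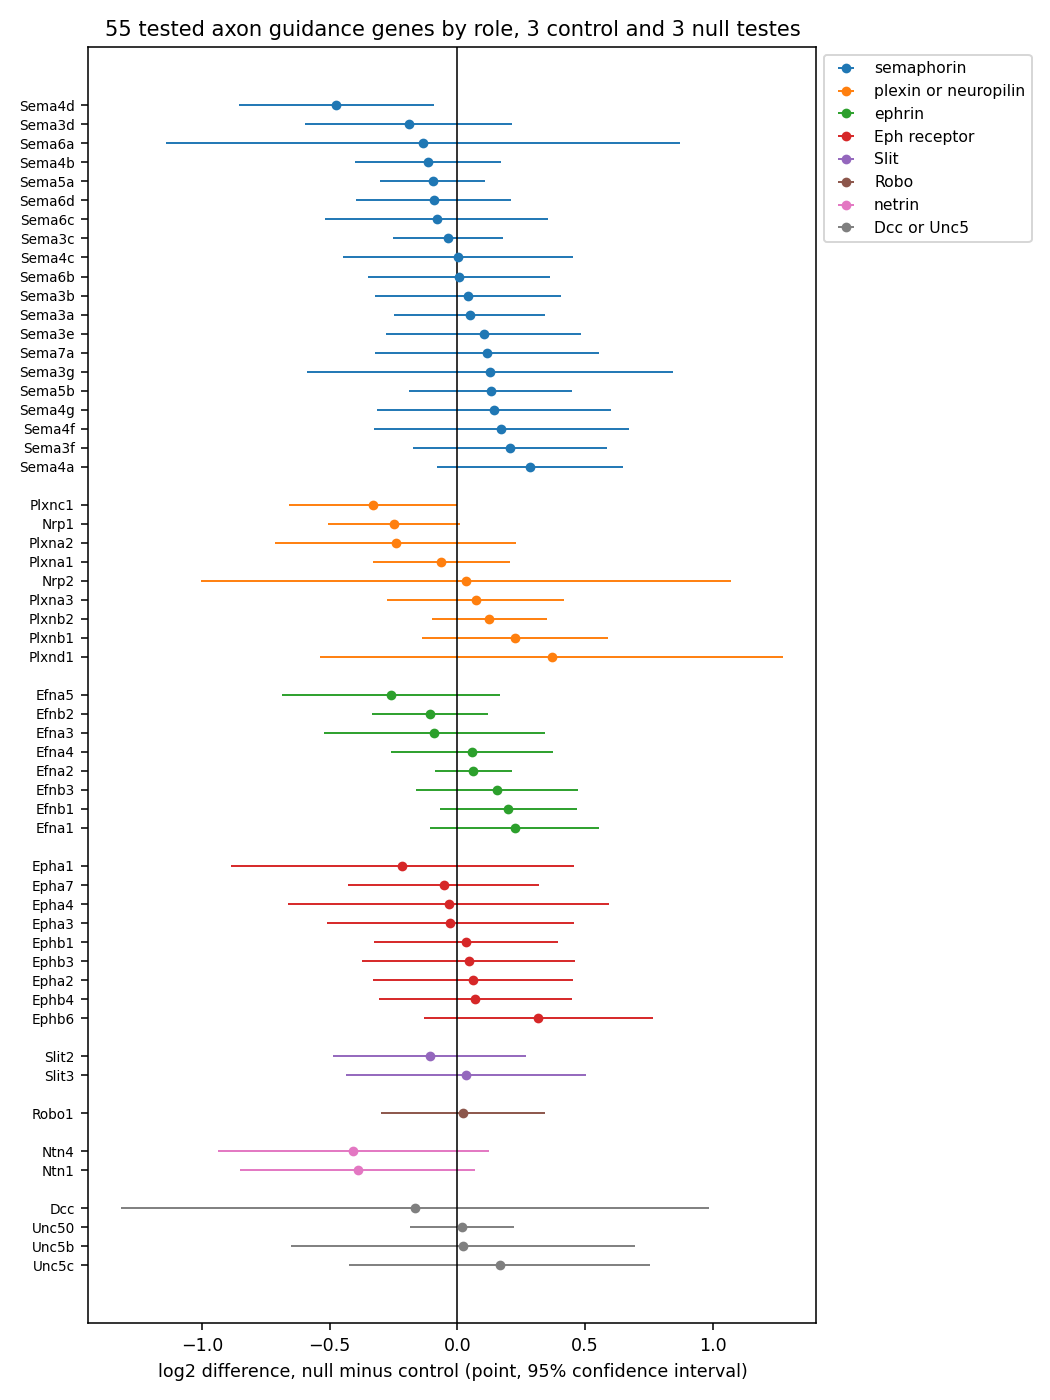
Log2 difference of null minus control testes for the 55 tested genes, grouped and coloured by role, with 95% confidence intervals from limma as horizontal bars. The intervals of Sema4d and Plxnc1 lie below 0 before adjustment, and the widest belong to Dcc, Nrp2 and Sema6a.

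Semaphorins are ligands that act through plexins, the secreted class 3 members mostly with a neuropilin as co-receptor. Of 20 tested, 12 were higher and 8 lower in the null, with a median difference of 0.02. Sema4d, a transmembrane ligand of plexin-B1, gave intensities of 862, 708 and 696 in the controls and 434, 641 and 569 in the nulls. All 3 null values lay below all 3 controls, and null replicate 1 was the lowest. The Sema4d level was 1.39-fold lower in the null, a log2 difference of -0.47 with a standard error of 0.16 (95% confidence interval -0.86 to -0.09, unadjusted p = 0.0208, limma adjusted p = 0.773, n = 3 per group). Without null replicate 1 the difference was -0.32. Both other Sema4d probe sets lay below the filter.

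Other semaphorins stayed closer to 0. Sema4a, of the same class as Sema4d, had 109, 80.9 and 96.2 in controls against 120, 107 and 119 in nulls, a difference of 0.28 ± 0.16 (standard error, n = 3 per group). The groups overlapped only because null replicate 2 was below control replicate 1. Sema3f, a secreted ligand that favours neuropilin-2, had a difference of 0.20 ± 0.16, and Sema5a, a transmembrane semaphorin with thrombospondin repeats, one of -0.10 ± 0.09 (standard errors, n = 3 per group). Sema3a, the classical neuropilin-1 ligand, was at 0.05, with a 95% confidence interval of -0.25 to 0.34. The groups of Sema3f and Sema5a overlapped as well.

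Among plexins and neuropilins, the receptors of the semaphorins, 5 of 9 tested genes were higher and 4 lower, with a median of 0.03. Plxnc1, the receptor of Sema7a, gave 804, 651 and 808 in the controls and 537, 565 and 700 in the nulls. Null replicate 3 lay above control replicate 2, so the groups overlapped. The Plxnc1 difference was -0.33 ± 0.14 (standard error, n = 3 per group), a 1.26-fold lower level (unadjusted p = 0.0488, limma adjusted p = 0.773). All 4 tested Plxnc1 probe sets were lower in the null, from -0.14 to -0.60. Its ligand Sema7a had a difference of 0.12.

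Nrp1, the co-receptor of class 3 semaphorins and of VEGF, was measured at 3280, 2590 and 3030 in controls and 2490, 2780 and 2220 in nulls. Only null replicate 2 reached into the control range. The Nrp1 difference was -0.25 ± 0.11 (standard error, n = 3 per group, unadjusted p = 0.0569, limma adjusted p = 0.773). The next probe set of Nrp1 gave -0.25 as well, and the third tested one -0.07. Nrp1 reached an unadjusted p of 0.0178 with control replicate 2 and null replicate 1 left out together, at a limma adjusted p of 0.833. That setting was added after seeing the data, and 3.15% of all probe sets were lower at an unadjusted p under 0.05 in it.

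Plxnb1, the receptor of Sema4d, stood on the other side of 0 from its ligand. Its intensities were 168, 230 and 198 in controls and 250, 207 and 236 in nulls, a difference of 0.22 ± 0.16 (standard error, n = 3 per group), and the groups overlapped. Plxnb2, a receptor of class 4 semaphorins, had a difference of 0.13 ± 0.10 (standard error, n = 3 per group). Plxna2, 1 of the members with the motif, had 343, 245 and 392 in controls and 275, 229 and 316 in nulls, and its difference of -0.24 had a limma adjusted p of 0.823. Plxnb3, also with the motif, lay below the filter at 13.7, 11.9 and 10.3 in controls and 14.1, 15.5 and 21.8 in nulls. Its groups did not overlap, and its difference of 0.50 is between values close to background.

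**Figure D2:**
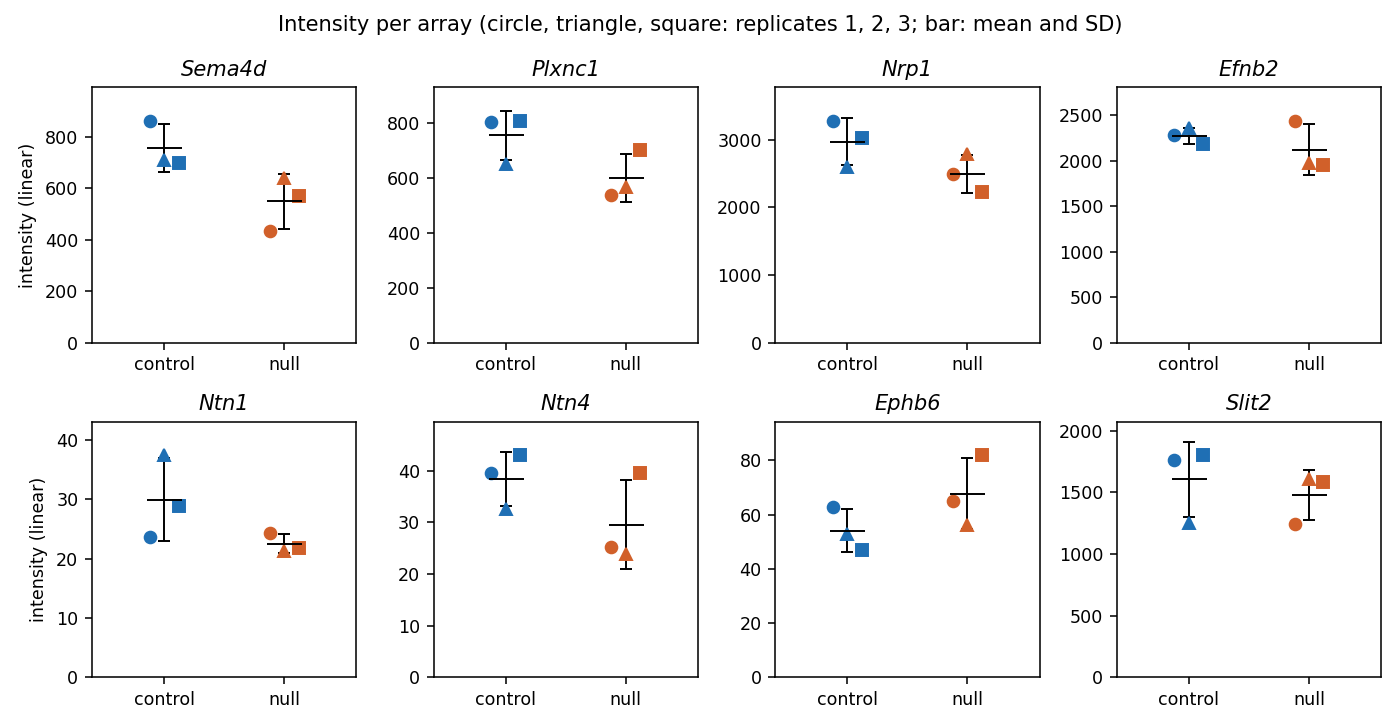
Intensity per array on linear axes that start at 0 for 8 members, with circles, triangles and squares for replicates 1, 2 and 3 and black bars for the mean and SD of each group. Only the Sema4d panel shows groups that do not overlap, and Nrp1 and Plxnc1 show 1 null array within the control range.

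Ephrins are membrane-bound ligands, and those of the A class are held by a lipid anchor while those of the B class span the membrane. Of 8 tested, 5 were higher and 3 lower, with a median of 0.06. Efna1 gave 281, 255 and 324 in controls and 346, 296 and 361 in nulls, a difference of 0.22 ± 0.14 (standard error, n = 3 per group). Efnb1 gave 827, 676 and 752 against 810, 826 and 950, a difference of 0.20 ± 0.12 (standard error, n = 3 per group), but its next probe set had -0.03. Both genes had overlapping groups. Efna5 was at -0.26 (limma adjusted p = 0.796) and Efnb3 at 0.16 (limma adjusted p = 0.830).

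Efnb2, an ephrin of arterial endothelium that binds Ephb4, gave 2280, 2360 and 2180 in controls and 2440, 1970 and 1950 in nulls. Null replicate 1 was the highest of the 6, and the other nulls were the lowest. The Efnb2 difference was -0.11 ± 0.10 (standard error, n = 3 per group). A dimmer probe set of Efnb2, singled out after its values were seen, had 30.3, 31.3 and 24.4 in controls and 22.8, 21.6 and 19.1 in nulls. Those groups did not overlap, and the difference was -0.43 (unadjusted p = 0.0341, limma adjusted p = 0.773). The 3 tested Efnb2 probe sets all had differences below 0, and leaving out null replicate 1 took the brightest of them to -0.21.

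Eph receptors are receptor tyrosine kinases that bind ephrins on neighbouring cells. Of 9 tested, 5 were higher and 4 lower, with a median of 0.03. Ephb6, whose kinase domain is inactive, gave 62.7, 52.7 and 46.8 in controls and 65.1, 56.1 and 81.9 in nulls, a difference of 0.32 ± 0.19 (standard error, n = 3 per group, limma adjusted p = 0.778). The groups overlapped, and without null replicate 3 the difference of Ephb6 was 0.17. Epha1 was at -0.22 ± 0.29 and Epha2 at 0.06 ± 0.17 (standard errors, n = 3 per group). Ephb4, a receptor of venous endothelium, gave 465, 357 and 492 in controls and 389, 500 and 486 in nulls, a difference of 0.07 whose 95% confidence interval was -0.31 to 0.45.

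Slits are secreted ligands that repel cells through Robo receptors. Slit2 gave 1760, 1250 and 1800 in controls and 1240, 1610 and 1580 in nulls, so control replicate 2 and null replicate 1 were alike and low. The Slit2 difference was -0.11 ± 0.16 (standard error, n = 3 per group). Its next probe set had 328, 119 and 254 in controls and 181, 398 and 438 in nulls, a difference of 0.56 in the opposite direction at a limma unadjusted p of 0.240. Slit3 was at 0.03 ± 0.20 and the receptor Robo1 at 0.02 ± 0.14 (standard errors, n = 3 per group). Robo1 had intensities of 3260, 2550 and 2830 in controls and 2410, 2980 and 3430 in nulls.

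Netrins are secreted relatives of laminins, and both tested netrins were lower in the null without being called. Ntn1 gave 23.6, 37.4 and 28.8 in controls and 24.3, 21.3 and 21.8 in nulls. Control replicate 1 lay within the null range, and control replicate 2 was the highest. Ntn1 had a difference of -0.39 ± 0.20 (standard error, n = 3 per group, unadjusted p = 0.0860, limma adjusted p = 0.773). Without control replicate 2 it was -0.22. Ntn4, the relative of laminin beta chains, gave 39.6, 32.6 and 43.0 in controls and 25.2, 23.9 and 39.5 in nulls, and its groups overlapped through null replicate 3. Its difference was -0.41 ± 0.23 (standard error, n = 3 per group, unadjusted p = 0.114, limma adjusted p = 0.774). It moved to -0.64 without null replicate 3.

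Dcc is the receptor through which netrin-1 attracts axons, and Unc5 receptors mediate its repellent action. Dcc gave 219, 105 and 118 in controls and 56.9, 147 and 230 in nulls, a difference of -0.17 ± 0.50 (standard error, n = 3 per group). Its values spanned 4.04-fold, and the highest and the lowest were both null arrays. Unc5c gave 1110, 546 and 851 in controls and 738, 903 and 1090 in nulls, a difference of 0.16 ± 0.26 (standard error, n = 3 per group). A second tested Unc5c probe set gave 0.27. Unc50 was steady at 1580 to 1840 over the 6 arrays, with a difference of 0.02.

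The spread among arrays of 1 group exceeded the difference between the groups at most of these genes. The absolute difference was above the pooled SD within groups at 15 of 55 members, or 27.3%, against 34.4% of all probe sets tested. The share over all tested genes with 1 probe set each was 35.2%. That pooled SD of log2 values had a median of 0.21 over the members and 0.18 over all probe sets tested. It was largest for Dcc (0.83), Nrp2 (0.75), Sema6a (0.73), Plxnd1 (0.65), Sema3g (0.49) and Unc5b (0.46). Nrp2, the co-receptor that also serves lymphatic vessels, gave 470, 186 and 556 in controls and 226, 435 and 530 in nulls. Control replicate 2 and null replicate 1 were well below the other 4 arrays, and the group difference was 0.03 with a 95% confidence interval of -1.01 to 1.07.

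Plxnd1, the endothelial receptor of Sema3e, had the same low arrays, at 336, 154 and 366 in controls and 227, 341 and 528 in nulls. Its difference of 0.37 was the highest of the tested members, with a standard error of 0.39 (limma adjusted p = 0.859). Without control replicate 2 it was -0.03. Sema6a, a transmembrane ligand of A-type plexins, gave 417, 142 and 215 in controls and 131, 326 and 225 in nulls. These genes varied about 3-fold between arrays, 2.99-fold for Nrp2, 3.43-fold for Plxnd1 and 3.18-fold for Sema6a.

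Unc5b ran the other way, and Sema3g did so only among the nulls, since control replicate 3 was its highest control. Sema3g, a secreted class 3 semaphorin, gave 62.0, 79.2 and 109 in controls and 137, 65.5 and 77.7 in nulls, a difference of 0.13 ± 0.31 (standard error, n = 3 per group). Unc5b, a netrin receptor of vessels, gave 81.6, 166 and 155 in controls and 166, 111 and 119 in nulls, a difference of 0.02 ± 0.29 (standard error, n = 3 per group). In both genes null replicate 1 was the highest null and control replicate 1 the lowest array of the controls.

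Counted after this order was seen, control replicate 2 and null replicate 1 were each the lowest of their group at 21 of 55 members, or 38.2%, against 19.2% of all probe sets tested. They included 8 semaphorins, 4 Eph receptors and 4 plexins or neuropilins, with Epha3, Epha4, Epha7, Sema6d, Sema7a, Robo1 and Slit2 besides those above. Both arrays were the highest of their groups at 6 members, Unc5b, Epha1, Efnb2, Efna3, Ntn1 and Plxnb1, or 10.9%, against 22.4% of all probe sets. With 1 probe set per gene, the shares over all tested genes were 19.7% lowest and 25.0% highest. Epha4, an Eph receptor that binds ephrins of both classes, had 1570, 761 and 1160 in controls and 823, 1180 and 1330 in nulls, with a difference of -0.03.

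Endothelial and erythroid markers, as list medians, were lowest of each group in the same arrays, control replicate 2 and null replicate 1. Single markers such as Egfl7 did not all follow. All 4 tested erythroid markers were higher in the null, with 0 at an unadjusted p under 0.05. All 12 endothelial markers passed the filter and 11 were higher, with 1 at that level, Egfl7 at 0.58, and 0 called. Their median log2 level, relative to the mean of the 6 arrays, was 0.32, -1.05 and 0.30 over the controls and -0.51, 0.26 and 0.51 over the nulls. Their summed intensity was 1660 to 4043 in controls and 2517 to 4458 in nulls. The 4 measured fetal Leydig genes of 6 listed, all above the filter, had levels of -0.75, 0.76 and 0.78 in controls and 1.26, -0.65 and -1.40 in nulls, and summed intensities of 4024 to 10320 and 3204 to 12950. The Leydig list did not follow that order, since null replicate 1 was its highest null but control replicate 3 its highest control. Erythroid levels were 0.65, -1.10 and -0.03 in controls and -0.25, 0.44 and 0.55 in nulls, from 4 tested of 6 listed genes, with summed intensities of 10762 to 18710 and 13331 to 17724. The part of these cells in the values of the guidance genes was not tested beyond the covariate given next.

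**Figure D3:**
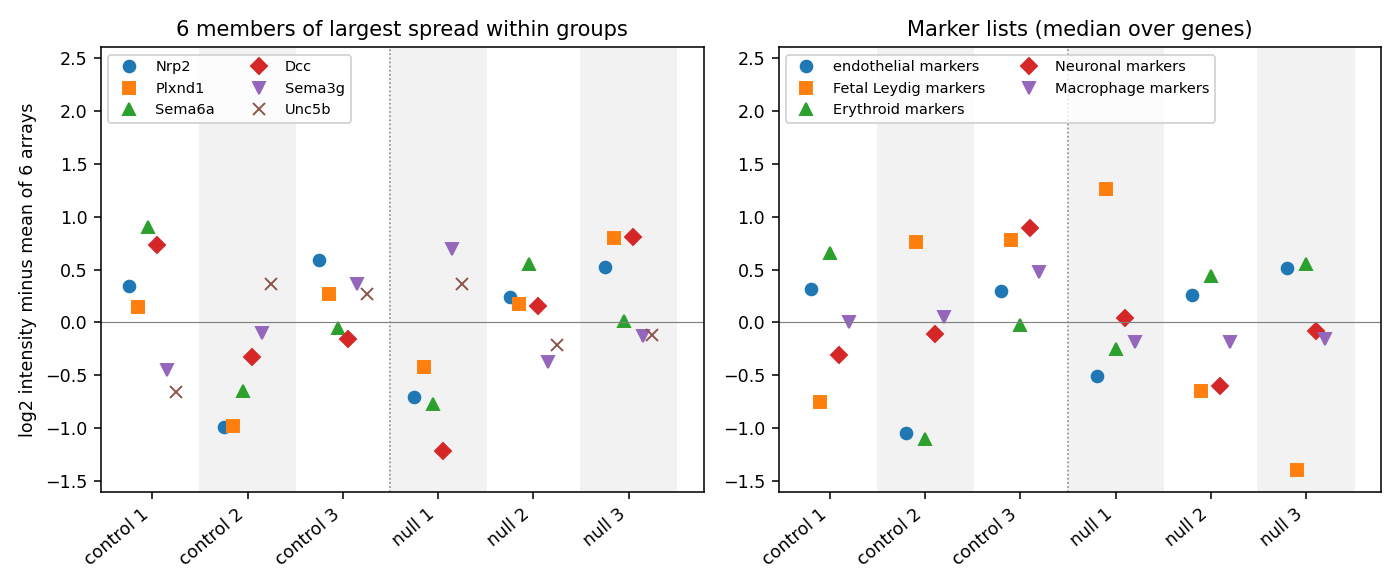
Deviation of each array from the 6-array mean, in log2 intensity, for the 6 members with the largest spread within groups (left) and the median of 5 marker lists (right), with controls left and nulls right of the dotted line. Nrp2, Plxnd1 and Sema6a are low in control replicate 2 and null replicate 1, where endothelial markers are at -1.05 and -0.51, whereas Sema3g and Unc5b are highest among the nulls in null replicate 1.

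With the endothelial level of each array as a covariate in limma, 0 members were called and 5 were lower at an unadjusted p under 0.05, against 5.14% of all probe sets lower in that fit. They were Sema4d at -0.52, Plxnc1 at -0.39, Nrp1 at -0.28, Ntn4 at -0.48 and Slit2 at -0.20, and their limma adjusted p lay between 0.473 and 0.481. With control replicate 2 and null replicate 1 left out together, a setting added after seeing the data, 3 members were lower at an unadjusted p under 0.05 and 0 were called. These were Sema4d at -0.36, Plxnc1 at -0.36 and Nrp1 at -0.34. Of all probe sets, 3.15% were lower and 2.49% higher at that level in the same fit.

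Macrophage markers lay on the same side as Sema4d, Plxnc1 and Nrp1. All 8 passed the filter and had differences below 0, with 2 at an unadjusted p under 0.05, Mrc1 at -0.54 and Adgre1 at -0.40, and 0 called. Their median log2 level, relative to the mean of the 6 arrays, was 0.0016, 0.054 and 0.47 in controls and -0.18, -0.19 and -0.16 in nulls. Their summed intensity was 1105 to 1620 in controls and 911 to 1008 in nulls, so the groups did not overlap. Mrc1 was the largest part of each sum, at 692, 642 and 968 in controls and 533, 505 and 522 in nulls. Tyrobp, the next brightest of the list, had a difference of -0.0089 and overlapping groups. All 4 measured fetal Leydig and all 4 measured mesonephros and duct markers were also lower, with 0 at an unadjusted p under 0.05. Of 9 tested Sertoli markers 3 were lower and 6 higher. At that level were Aard at -0.43 and Cst9 at -1.58, both lower, and Nr5a1 at 0.54, higher, and 1 was called, Cst9. The summed Sertoli intensity was 16395.2 to 17594.5 in controls and 13447.2 to 14598.7 in nulls, also without overlap. Of 9 germ cell markers 6 were lower and 3 higher, with 2 at that level. The part of macrophages or of these other cells in the values of Sema4d, Plxnc1 and Nrp1 was not tested.

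Control replicate 3 stood apart in neuronal markers. Of 9 measured neuronal markers 6 passed the filter, and Elavl3, Nefm and Th did not. The summed intensity of the 9 was 249 to 1106 in controls and 241 to 366 in nulls, the 1106 being control replicate 3. The median log2 level of the 6 tested was 0.90 in that array and -0.60 to 0.04 in the others. It was the highest array at 8 of the 9, and Stmn2 was highest in null replicate 1. Snap25, a synaptic protein, was at 672 against 25.4 to 57.1 elsewhere, and Th, the first enzyme of catecholamine synthesis, at 83.1 against 5.96 to 13.4. Of the 8 macrophage markers, 7 were highest in the same array. Without control replicate 3 the difference was -0.53 for Sema4d, -0.28 for Plxnc1 and -0.23 for Nrp1 (limma adjusted p = 0.957 for all 3). The part of neuronal cells in the values of the guidance genes was not tested. Of 5 measured Schwann and glial markers 3 passed, with summed intensities of 785 to 894 in controls and 549 to 796 in nulls.

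Several members could be checked on a second probe set. Of 26 members with more than 1 tested probe set, 17 had the same sign on all of them and 9 did not, and the next brightest probe set had the sign of the brightest in 18. The 9 were Epha4, Epha7, Efnb1, Efna2, Plxna2, Nrp2, Sema3d, Sema3e and Slit2, and no probe set of these 9 had an unadjusted p under 0.05. Over all 98 tested probe sets of the members, 3 were lower at an unadjusted p under 0.05, 1 each of Sema4d, Plxnc1 and Efnb2, 0 were higher, and 0 were called. Of the 17 members with 1 sign, 9 were higher in the null on every tested probe set, Unc5c, Unc50, Efna1, Plxnb1, Plxna3, Sema4a, Sema3f, Sema5b and Sema3a. The other 8 were lower, Epha3, Efnb2, Efna3, Plxnc1, Nrp1, Sema5a, Sema3c and Sema6a.

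**Figure D4:**
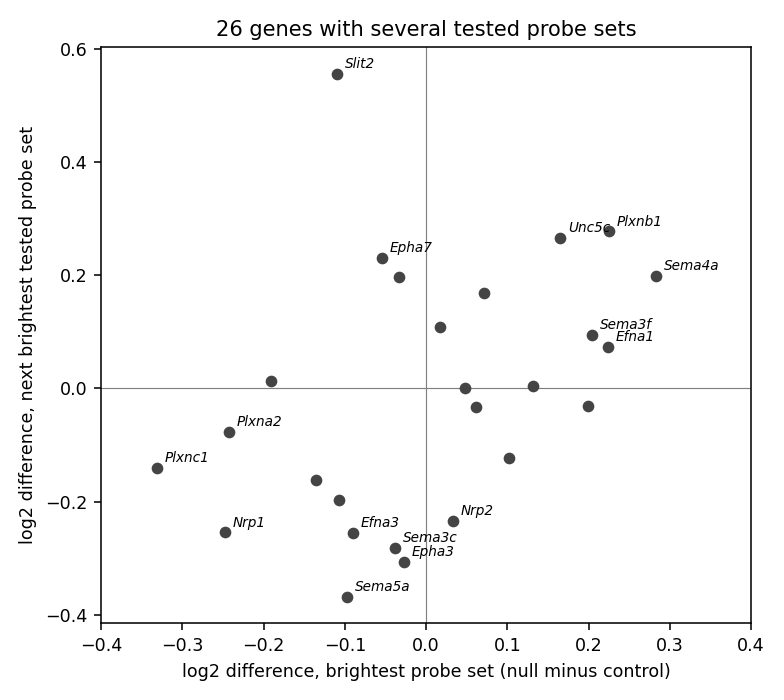
Log2 difference of null minus control on the brightest probe set (horizontal) and on the next brightest tested probe set (vertical) for the 26 members with more than 1 tested. In 18 the signs are the same, and Slit2 at the top left is the widest disagreement, with -0.11 and 0.56.

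Genes that work with these families were taken from a list of 68, of which 58 were tested. The list holds other ligands, receptors and co-receptors, adhesion molecules, cytoplasmic effectors and a protease. In the null 35 were lower and 23 higher, with a median of -0.04, 2 were lower at an unadjusted p under 0.05 and 0 were higher, or 3.45% lower against the 3.28% lower and 2.75% higher of all probe sets. The groups did not overlap at 7, all lower, which is 12.1% against the 6.06% of all probe sets separate and lower and 6.73% separate and higher. Islr2, a membrane protein of axons, was the 1 gene called of the 58, at -1.67 and a limma adjusted p of 0.0459. Of all probe sets tested, 6 were called, or 0.0272%, and Islr2 is among them. The list was chosen with earlier results of these data known, so this call is not independent support for the list. It gave 57.9, 50.5 and 42.9 in controls and 16.9, 14 and 16.3 in nulls. The null values were near the array medians of 14.6 to 14.8, so the size of this difference rests on values close to background. Islr2 was called in none of the 6 fits that left out 1 array. Dpysl3, a collapsin response mediator, gave 2180, 1910 and 2370 in controls and 1650, 1880 and 1820 in nulls, a difference of -0.27 (unadjusted p = 0.0255, limma adjusted p = 0.773). Rgmb, a ligand of neogenin, was at -0.32, the adhesion molecule L1cam at -0.41 and Dpysl4 at 0.64, each with a limma adjusted p of 0.773.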

How the data were processed

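Testis RNA was amplified, biotin-labelled and hybridised to 1 array per sample. The deposited intensity values, on a linear scale, were made by the authors with GCRMA, per the submitters' processing notes, which give no version. GCRMA models background, so folds between dim values depend on it. Genes came from GEO's platform annotation, and 932 probe sets with several symbols named no gene.

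The log2 of each intensity was used as it stood. The 22082 probe sets whose mean log2 was 4 or more were fitted together with limma 3.58.1 in R 4.3.3, with a group term, a trend of variance with intensity, two-sided tests and Benjamini-Hochberg adjustment over all of them. A call means an adjusted p under 0.05. The fit was tested on simulated data with independent noise for each probe set and added differences larger than any of the members here. The simulated arrays had no shifts shared by many probe sets, so that test does not cover such shifts or small differences.

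Members, lists and tests were chosen with earlier results of these data known. Named members are the called ones, those of smallest p (4 per large family, 2 per small), and the 6 with the largest spread within groups. Any other member was named after its values had been seen. The alternatives tried are given in the closing section.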

Additional observations from a re-analysis of the deposited data

How the results depend on the processing

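No member was called under any alternative run, and Sema4d, Plxnc1 and Nrp1 stayed below 0 in all of them, at -0.60 to -0.32, -0.45 to -0.26 and -0.34 to -0.17. The replicate block gave 0 called probe sets in place of 6, 0 called partner genes in place of 1, and 0 members lower at an unadjusted p under 0.05 in place of 2. Deviations of same-numbered arrays from their group means correlated at -0.59, -0.34 and 0.14. These values cannot decide whether equal numbers mark a pair, since deviations within a group of 3 depend on one another. Islr2 was the partner gene called, and 0 partner genes were called with no filter, with a filter at a mean of 6 (which removes it), with quantile normalization, with 16 added, without the trend, and with control replicate 2 and null replicate 1 left out together. Without the trend 1 probe set was called and 1 member was lower at an unadjusted p under 0.05. That count of lower members was 7 with array weights, where 5.26% of all probe sets were lower against 3.28% and control replicate 3 was weighted at 4.43, 5 with the endothelial covariate and 1 with the mean over probe sets. With no filter 2 members were higher, Plxnb3 and Robo3, and Unc5d joined the lower ones. Of all probe sets, 2.66% were higher and 2.79% lower at an unadjusted p under 0.05 in that fit. Single arrays left out gave 0 to 4 called probe sets, 0 called partner genes and 1 to 4 lower members, where 2.16% to 4.33% of all probe sets were lower.

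Differences near 0 changed sign. With array weights Efnb3 was at -0.0019, Ephb4 at -0.0056, Slit3 at -0.18, Dcc at 0.12, Nrp2 at -0.26, Sema6a at 0.089, Sema3g at -0.26 and Unc5b at -0.22. With the endothelial covariate Ephb4 was at -0.0048, Robo1 at -0.043 and Nrp2 at -0.23. With control replicate 2 and null replicate 1 left out together Dcc was at 0.19, Nrp2 at -0.090 and Sema3g at -0.20. Slit2 was at 0.044 with the mean over probe sets, and Efnb1 at -0.031 without probe set types that can bind related transcripts. Single arrays left out moved Epha1 from -0.46 to 0.020, Ephb4 from -0.070 to 0.18, Epha2 from -0.017 to 0.17, Slit2 from -0.28 to 0.012, Slit3 from -0.11 to 0.19 and Robo1 from -0.097 to 0.16. They moved Unc5c from -0.11 to 0.40, Dcc from -0.61 to 0.40, Nrp2 from -0.45 to 0.40, Sema6a from -0.49 to 0.28, Plxnd1 from -0.026 to 0.67, Sema3g from -0.19 to 0.35 and Unc5b from -0.30 to 0.21. The causes were not tested.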
